A study of Mus musculus with 15 samples.

Results

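The transcriptome of the normal posterior eyecup is described here, gene by gene and cell type by cell type. The 4 libraries labelled WT, of 15 in the series, were taken by that label alone, and each held polyadenylated RNA from the posterior eyecups of a mouse aged 2.5 months. The eyecup was collected without its neural retina, so that it holds the retinal pigment epithelium, the choroid and the sclera. WT mice were on the C57BL/6 J background, and both sexes were used. Of the remaining libraries 6 were FUN025/+ and 5 were FUN025/FUN025, from mice of the same age and background with 1 or 2 copies of the FUN025 mutation of Tmem135, and no other allele, agent or diet was named for any group. The mutation was germline, so it was not limited to any cell type of the eyecup. The protocol pooled the eyecups of individual mice, which leaves unsaid whether a library holds 1 eye or both.

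The retinal pigment epithelium is the pigmented cell layer under the photoreceptors. It regenerates the chromophore of visual pigment, digests shed outer segments and moves nutrients from the choroidal blood to the retina. The choroid is a bed of fenestrated capillaries and larger vessels among pigment cells of neural crest origin, fibroblasts, macrophages, mast cells and nerves, and the sclera is the collagen coat outside it, onto which the extraocular muscles insert. A dissected eyecup may also carry fragments of retina, optic nerve, muscle, fat, lens or surface epithelium. In such bulk libraries, more cells of a type and more RNA per cell cannot be told apart.

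Total counts were 18094977 to 20029919 in WT, 10903183 to 13456349 in FUN025/+ and 11053535 to 15038383 in FUN025/FUN025. The shallowest WT library thus exceeded the deepest mutant one, so depth and genotype cannot be told apart between groups. Levels are given as counts per 1000000 counts of the library (CPM), and 3 counts amounted to 0.15 to 0.17 CPM in WT, a floor that covers counting error only. Levels of different genes are compared per length, that is as counts per kilobase of annotated exon scaled to a sum of 1000000 in each library (TPM), and an order of genes in CPM is an order of counts, of which longer transcripts gather more. Values of the 4 libraries are listed in the order WT replicate 1, 2, 3 and 4, errors are SD with n = 4, and each list of marker genes is summed over its members.

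Promoter sequences are shown for a marker of each of 3 components of the eyecup, since the lists they belong to behaved differently among the WT libraries. Each is the 250 bases before the RefSeq start of the gene on GRCm38.p6, written 5′ to 3′ on the strand of the gene. Capitals mark CATGTG or its reverse complement in Rpe65 and Tyr, an E-box form known to be bound by MITF, and CAGCTG in Acta1, an E-box form known to be bound by myogenic factors. Rpe65, chr3:159598931-159599180 on the plus strand, encodes the isomerase of the visual cycle in the pigment epithelium. Tyr, chr7:87493513-87493762 on the minus strand, encodes tyrosinase, which starts melanin synthesis. Acta1, chr8:123894776-123895025 on the minus strand, encodes skeletal muscle actin.
Rpe65: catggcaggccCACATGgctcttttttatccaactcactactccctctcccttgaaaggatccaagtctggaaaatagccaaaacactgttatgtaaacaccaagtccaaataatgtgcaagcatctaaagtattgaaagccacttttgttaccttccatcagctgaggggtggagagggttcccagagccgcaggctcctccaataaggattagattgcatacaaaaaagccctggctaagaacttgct
Tyr: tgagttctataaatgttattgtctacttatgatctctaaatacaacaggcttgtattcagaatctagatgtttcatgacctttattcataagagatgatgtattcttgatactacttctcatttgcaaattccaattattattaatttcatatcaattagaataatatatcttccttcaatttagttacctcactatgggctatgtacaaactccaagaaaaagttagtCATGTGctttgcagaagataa
Acta1: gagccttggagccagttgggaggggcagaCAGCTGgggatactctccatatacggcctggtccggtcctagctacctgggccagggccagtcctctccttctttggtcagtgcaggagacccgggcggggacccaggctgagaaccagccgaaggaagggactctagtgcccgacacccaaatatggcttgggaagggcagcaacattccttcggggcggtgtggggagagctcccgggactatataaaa
The capitals began 239 bases before the start in Rpe65, 21 bases before it in Tyr and 221 bases before it in Acta1. In windows of 300 bases, 250 before and 50 after the start, CATGTG stood on either strand in 5 of the 7 matched promoters of the pigment granule list and in 14.1% of all 27025 promoters. CAGCTG stood in 9 of the 20 matched promoters of the striated muscle list and in 16.1% of all promoters. TAATCC, the form bound by the photoreceptor factor CRX, stood in 5 of the 13 matched promoters of the rod list and in 7.16% of all promoters. Matches were not limited to these pairs, since CAGCTG also stood in 4 of 13 rod and 2 of 7 pigment granule promoters, TAATCC in 2 of 7 pigment granule promoters and CATGTG in 3 of 13 rod promoters. The Rpe65 stretch also holds CAGCTG and the reverse complement of TAATCC, both left in small letters. No motif share was counted for the pigment epithelium list, to which Rpe65 belongs. These are matches of letters, and no binding was measured.

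In WT eyecups 17561 genes had a mean of at least 1 CPM, 2217 a mean of at least 100 CPM and 64 a mean of at least 1000 CPM. The 64 highest genes held 16.0% of all counts, and protein-coding genes held 96.1% ± 0.133. Another 22317 genes had no count in any WT library. The genes that drew the most counts included mitochondrial genes and genes of secreted and pigment epithelial proteins.

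The mitochondrial cytochrome oxidase subunit gene mt-Co1 drew the most counts, at 13214, 13644, 13089 and 14189 CPM. Ptgds, which encodes prostaglandin D synthase, a lipid carrier of the eye and meninges, followed in counts at 7912, 8149, 7748 and 8938 CPM. Trf, which encodes the iron carrier transferrin, had 7300.3, 6530.4, 7098 and 7993 CPM. Of the 31-base stretches in its exons, 63.9% also occur in other genes, so its level and rank are uncertain. The highest library exceeded the lowest by 1.08-fold for mt-Co1, 1.15-fold for Ptgds and 1.22-fold for Trf. Rgr, the retinal G protein receptor opsin of the pigment epithelium, had 6742, 5583, 6072 and 6608 CPM. Ttr, which encodes the retinol carrier transthyretin, had 5979, 5539, 5623 and 6874 CPM, lowest in replicate 2 and highest in replicate 4. Timp3, a metalloproteinase inhibitor of Bruch's membrane, had 5392, 4594, 5049 and 4510.5 CPM.

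The rest of the 25 genes highest in CPM were, in falling order of counts among the nuclear genes, Apoe, Igfbp5, Dct, Psap, Clu, Eef1a1, Cst3, Dcn, Syn3, Tyrp1, Atp2a1, App, Malat1 and Sparc, with mt-Cytb, mt-Nd1, mt-Nd5, mt-Nd4 and mt-Nd2 among them. Apoe, a lipoprotein component, had a mean of 4418 ± 388 CPM, and Igfbp5, a secreted binder of insulin-like growth factors, 4129 ± 329 CPM. Psap and Cst3, a precursor of lysosomal activators and a protease inhibitor, had means of 3397 ± 163 and 2867 ± 249 CPM. Clu, a secreted chaperone, had 2916 ± 106 CPM. Syn3, a synapsin gene at chr10:86055125-86498896, had 2516 ± 107 CPM, and Timp3 at chr10:86300372-86349506 lies within it. Of the 31-base stretches in the exons of Syn3, 14.7% also occurred in other genes, nearly all in Timp3, and the counting strand is not given in the sources used here, so the counts of the 2 genes are uncertain. Eef1a1 shared 51.5% of its stretches with other genes, so its level and rank are uncertain too. Per length the 10 highest were mt-Co1, mt-Cytb, Ttr, Ptgds, mt-Nd1, mt-Nd6, Cst3, Trf, mt-Nd2 and Apoe, from 27842 down to 6560.3 TPM. Only 14 of the 25 genes highest in CPM were among the 25 highest per length.

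**Figure D1:**
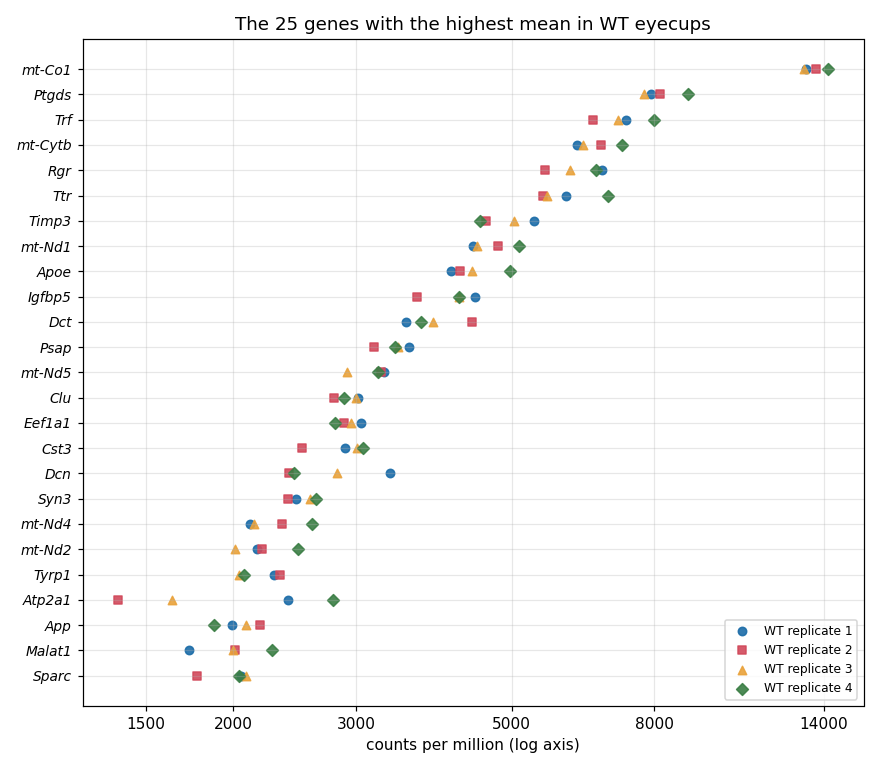
CPM (log axis) of the 25 genes with the highest WT mean, 1 symbol per WT library. The symbols of most genes lie close together, while Atp2a1, a muscle gene, runs from 1368 CPM in replicate 2 to 2772 CPM in replicate 4.

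The mitochondrially encoded genes fell into very different levels. The list of 13 summed to 32676, 34272, 32156 and 36263 CPM, or 3.38% of counts, and per length to 87394 TPM, the largest sum of the 24 lists. mt-Co1 reached 27842 ± 589.9 TPM, whereas mt-Co2, another subunit of the same enzyme, reached 154 ± 16.95 TPM. mt-Co3, the remaining mitochondrial subunit gene of that enzyme, reached 91.4 ± 33.002 TPM. mt-Co2, mt-Co3, mt-Atp6, mt-Nd4l and mt-Nd3 were the 5 members with over 98% of their 31-base stretches also present in other annotated genes. All 5 lay between 81.8 and 203 TPM, and the 7 highest members between 5294 and 27842. Shared sequence did not go with a low level in every member, since mt-Co1 and mt-Nd4 shared 63.9% and 62.8%, and mt-Atp8, at 13.7 TPM, shared 7.47%. How far shared sequence set these levels was not tested.

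Genes of the pigment epithelium were all present and formed the largest nuclear list per length, at 30542 TPM. The 15 genes summed to 24614, 21404, 22345 and 24917 CPM, 2.33% of counts, and all 15 exceeded 1 CPM. The sum was highest in replicate 4 and lowest in replicate 2, a 1.16-fold range. Rpe65, at chr3:159599175-159625321, had 2219.5, 1765, 1915 and 1985 CPM, so that the marker of the visual cycle was strong and even in every library. Per length Ttr stood at 16074 ± 1303 TPM, ahead of Rgr at 4152 ± 343 and Rpe65 at 3242 ± 336. Of the other visual cycle genes, Lrat, which esterifies retinol, had 1508, 1282, 1149 and 1352 CPM. Rlbp1, a retinaldehyde carrier, had 1950.1, 1671, 1795 and 1957 CPM, and Rdh5, an 11-cis-retinol dehydrogenase, had 973, 916, 962 and 1117 CPM. The widest of these 3 was Lrat, with a 1.31-fold range among the 4 libraries. Mertk, the receptor for engulfing outer segments, had 165, 154, 154 and 145 CPM. Trpm3, a cation channel gene that hosts a microRNA, had 1367, 1378, 1269.7 and 1373 CPM. Otx2, a transcription factor gene of the epithelium, had 377, 391, 382 and 362 CPM. Best1, often used as an epithelial marker, was the exception, at 2.71, 1.81, 2.15 and 2.15 CPM. It had the largest spread of the list, an SD of log2 CPM of 0.23, and counting alone would give 0.23 at this depth.

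Melanin genes formed a further abundant and steady group. The 12 pigment granule genes summed to 9723, 11074, 9658 and 9725 CPM, 1.004% of counts. Replicate 2 was above the others, which lay close to each other. Pmel, at chr10:128704195-128720238, encodes the amyloid scaffold of the melanosome and had 1896, 2262, 1797 and 1957 CPM. Dct and Tyrp1, enzymes of melanin synthesis after tyrosinase, had 3526, 4383, 3862 and 3713 CPM and 2287, 2334, 2040.0 and 2073 CPM respectively. Replicate 2 was the highest of the 4 for all 3 of these genes. Per length, Pmel stood at 2745 ± 293, Tyrp1 at 2457 ± 209, Dct at 2089 ± 213 and Tyr at 185 ± 22.9 TPM. Slc45a2, a melanosomal transporter, had the largest spread, at 166, 174, 150.3 and 203 CPM. Pigment granules occur in the pigment epithelium and in choroidal melanocytes alike. Markers of neural crest melanocytes summed per length to 459.6 TPM, against 9857 for the pigment granule genes. Ednrb and Sox10, which other neural crest derivatives also use, had 360.2, 344, 307 and 347 CPM and 175, 159, 176 and 192 CPM. Kit, Pax3 and Mc1r, a receptor, a transcription factor and the melanocortin receptor of melanocytes, stood per length at 14.8, 6.83 and 2.38 TPM. Of the neural crest list Mc1r had the largest spread, at 2.27, 2.96, 2.496 and 3.19 CPM.

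Endothelial genes were steady among the libraries, with a median SD of log2 CPM of 0.10, and mural genes less so, at 0.18, beside 0.13 over all genes. The 18 endothelial genes summed to 2272, 2224, 2386 and 2484 CPM, and all exceeded 1 CPM. Plvap, at chr8:71497765-71511752, encodes the diaphragm protein of fenestrated capillaries and was the highest endothelial gene per length, at 442 ± 28.9 TPM. It had 263, 261, 269 and 313 CPM, highest in replicate 4. Eng, a co-receptor for transforming growth factor beta, had 246, 238, 269 and 289 CPM, and Cldn5, a tight junction gene, had 73.9, 77.1, 82.03 and 87.99 CPM. Kdr and Flt1, receptors for vascular endothelial growth factor, had 254, 207, 235 and 228 CPM and 209, 201, 217 and 205 CPM. Of the 18 genes, 12 were highest in replicate 4 and 10 were lowest in replicate 2. Car4, a carbonic anhydrase of the choriocapillaris, had only 3.54, 2.25, 3.05 and 2.48 CPM and the largest spread of the list. In the mural list of 12 genes, Acta2, Rgs5 and Tagln were highest per length, at 491, 465 and 249.96 TPM. Tagln shares 62.2% of its 31-base stretches with other genes, so its level and rank are uncertain. Acta2, smooth muscle actin, had 347, 345, 379.9 and 282 CPM. Myh11, smooth muscle myosin, had 297, 282, 276 and 174 CPM, and here replicate 4 was the lowest library, in contrast to the endothelial genes.

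Matrix genes of the sclera and choroid were highest in replicate 1 and lowest in replicate 2. The 16 stromal genes summed to 12357, 9617, 11535 and 10390.0 CPM, 1.097% of counts, with 11 of 16 highest in replicate 1 and 10 of 16 lowest in replicate 2. Dcn, the collagen-binding proteoglycan decorin, had 3352, 2405, 2814 and 2445 CPM. Col1a1, the main fibrillar collagen chain, had 1123, 739.6, 1045 and 905 CPM. Sparc and Fmod, a collagen chaperone and a small proteoglycan, stood per length at 1665 ± 119.5 and 544 ± 101 TPM, on either side of Dcn at 1503 ± 264. Ogn, another small proteoglycan, varied most of the list, at 308, 206, 251 and 178 CPM. The cartilage-type matrix genes showed the same order of libraries more widely. Comp, a pentameric matrix protein of tendon and cartilage, had 118, 47.2, 103 and 61.4 CPM. Chad, which encodes chondroadherin, had 137, 80.6, 121 and 96.9 CPM, and Cnmd, which encodes chondromodulin, 15.03, 4.27, 11.4 and 5.62 CPM. Matn3 departed from them, at 10.998, 21.9, 10.3 and 4.07 CPM, with replicate 2 the highest, and was the member with the largest spread. Acan, the main proteoglycan of hyaline cartilage, was at 0.608, 0.274, 0.599 and 0.551 CPM, just above the floor.

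**Figure D2:**
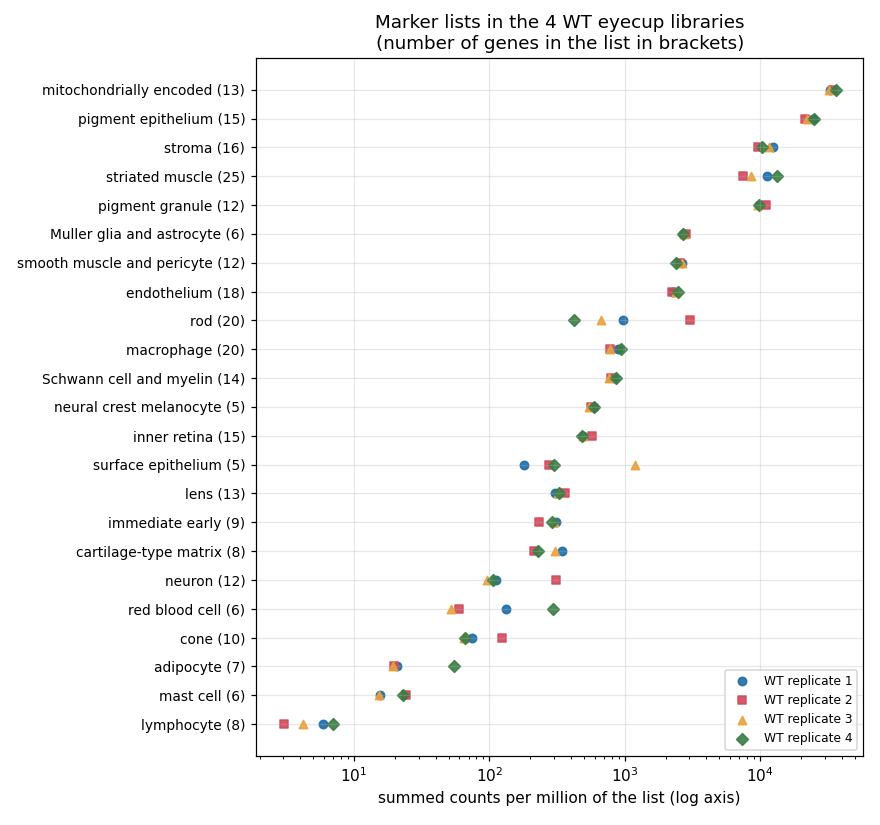
Summed CPM (log axis) of 23 marker lists, 1 symbol per WT library. Lists of the pigment epithelium, pigment granule, stroma and endothelium vary by 1.28-fold or less among libraries, whereas rods run from 422 to 3019 CPM, surface epithelium from 180 to 1184 CPM and red blood cells from 52.2 to 295 CPM.

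Striated muscle genes were abundant in every WT library. The 25 genes summed to 11206, 7528, 8564 and 13209 CPM, 1.01% of counts, and per length to 13338 TPM. Acta1, at chr8:123891769-123894751, had 739, 557, 584 and 1019.9 CPM. Atp2a1, the calcium pump of fast fibres, had 2391, 1368, 1632 and 2772 CPM and stood highest of the list per length, at 1860.2 ± 569 TPM, followed by Tnnc2 at 1578 ± 416 and Acta1. For both genes the order of libraries was replicate 4, 1, 3 and 2. The list did not move as 1 unit, and the genes named in the next sentences were chosen after their values were seen. Myh4, the fast IIb myosin chain, had 2166, 702, 1298 and 2010.5 CPM, low in replicates 2 and 3. Actn3, a fast-fibre actinin, had 257, 94.3, 158 and 288 CPM, and Pvalb, the calcium buffer parvalbumin, 495, 246, 347 and 534 CPM. Myh1 and Myh2, the IIx and IIa myosin chains, ran differently, at 493, 739, 562 and 735 CPM and 218, 329.8, 249 and 317 CPM, lowest in replicate 1. The slow-fibre genes were lowest where Myh4 was highest. Myh7, the slow myosin chain, had 4.92, 19.1, 24.7 and 9.64 CPM. Tnni1, slow troponin I, had 0.83, 7.504, 9.44 and 3.25 CPM, and Myl2, a slow light chain and the member with the largest spread, 0.387, 6.46, 6.99 and 2.53 CPM. In these 3 genes replicate 1 was lowest and replicate 3 highest. The IIb and IIx chains share 30.4% and 42.9% of their stretches with other genes, so counts between them are uncertain. Tnnc2 shares 59.04% with Ube2c and Atp2a1 19.6% with Rabep2, so their levels and ranks are uncertain too. Myh13, an extraocular myosin gene, was at 0.442, 0.164, 0.2995 and 0.0551 CPM, at or near the floor in every library.

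Neuronal genes were low, at a sum of 114 TPM per length, whereas the glial list of Muller cells and astrocytes summed to 2730.0 TPM, most of it from genes the pigment epithelium uses too. The 14 Schwann cell and myelin genes summed to 829.9, 791, 763 and 863 CPM, and S100b, Pmp22 and Cnp were highest per length, at 563, 341 and 48.2 TPM. Mbp, shared by central and peripheral myelin, had 114, 96.3, 69.8 and 97.6 CPM. Mobp, a gene of central myelin, had 15.5, 12.4, 1.35 and 9.75 CPM, far lowest in replicate 3, and it varied most of the list. Gfap, an astrocyte filament gene that Muller cells also use, had 161, 81.8, 51.2 and 174 CPM, and Slc1a3, a glial glutamate transporter, 65.3, 56.03, 36.3 and 80.5 CPM, both lowest in replicate 3. In the glial list Glul and Car14 were highest per length, at 1803 and 799 TPM, varied little and are also used by the pigment epithelium. Among neuronal genes, Uchl1, Syp and Syt1 led per length, at 29.4, 19.1 and 14.4 TPM. Syp, a synaptic vesicle gene, had 23.3, 64.1, 17.6 and 19.8 CPM. Snap25, a synaptic fusion gene, had 14.3, 65.8, 6.89 and 8.42 CPM. Both were highest in replicate 2, where 9 of the 10 neuronal genes above 1 CPM peaked. Th, the marker of sympathetic nerves, was at 0.608, 0.767, 0.499 and 0.551 CPM, and Prph, a filament gene of peripheral neurons, at 0.884, 0.986, 1.398 and 1.05 CPM.

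Macrophage genes led the immune lists. Csf1r, at chr18:61100598-61132149, the receptor macrophages need for survival, had 265, 230.0, 245 and 247 CPM. The 20 macrophage genes summed to 897, 780.3, 779.8 and 935 CPM, and all exceeded 1 CPM. Per length the complement genes C1qa and C1qb led, at 259 ± 39.8 and 197 ± 33.3 TPM, ahead of Csf1r at 136 ± 9.05. C1qa had 77.6, 80.9, 73.9 and 107 CPM, highest in replicate 4. Mrc1 and Cd163, scavenger receptors of perivascular macrophages, had 61.7, 40.2, 41.7 and 29.9 CPM and 29.5, 24.4, 21.8 and 13.7 CPM, highest in replicate 1 and lowest in replicate 4, and were chosen after their values were seen. Cx3cr1, a chemokine receptor gene, varied most of the list, at 23.6, 11.8, 11.4 and 16.4 CPM. Tmem119 and P2ry12, used as microglial markers, had 39.7, 34.7, 39.2 and 44.5 CPM and 3.32, 3.51, 2.75 and 2.42 CPM. Mast cell genes summed to 15.6, 24.05, 15.2 and 22.8 CPM, led per length by the proteases Mcpt4, Cma1 and Tpsb2 at 14.5, 12.3 and 9.27 TPM, and Hdc, the histamine-forming enzyme, had the largest spread, at 1.93, 2.52, 0.999 and 1.32 CPM. Lymphocyte genes were close to the floor, with a sum of 5.91, 3.01, 4.19 and 6.94 CPM and 2 of 8 genes above 1 CPM. Those were Cd79b and Cd79a, parts of the B cell receptor, and Cd3e, a part of the T cell receptor, was at 0.111, 0.164, 0.1997 and 0.385 CPM. Red blood cell genes summed to 133, 59.2, 52.2 and 295 CPM, highest in replicate 4. Hbb-bs, a globin gene, had 66.3, 27.4, 24.01 and 139 CPM, and 54.4% of its stretches also occur in other genes, so the split among globin genes is uncertain.

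Rod transcripts were present in every WT library, and unequally. The 20 rod genes summed to 975, 3019, 666 and 422 CPM, from 422 in replicate 4 to 3019 in replicate 2, a 7.16-fold range. Gnat1, rod transducin, had 138, 424, 84.7 and 40.4 CPM, and Prph2, a disc rim protein, 54.3, 206, 39.1 and 19.7 CPM. The order of libraries was replicate 2, 1, 3 and 4 in both genes. All 19 rod genes above 1 CPM were highest in replicate 2, and 17 of the 19 were lowest in replicate 4. Rom1, a further disc rim gene, was flatter, at 110.4, 155, 101 and 114 CPM, and per length stood at 252 ± 52.3 TPM against 182 ± 184 for Gnat1. Grk1, a kinase of the rod outer segment, had the largest spread of the list, at 32.1, 116, 20.5 and 9.69 CPM. Rods as a list held 0.127% of counts, and their mean sum of 1270.4 CPM fell to 687 CPM without replicate 2.

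Cone and inner retinal genes went partly with the rods. Cone genes summed to 74.8, 124, 65.1 and 66.4 CPM, with 7 of 9 genes above 1 CPM highest in replicate 2. Opn1sw, the short-wavelength opsin, had 5.803, 16.4, 4.59 and 2.26 CPM, and Arr3, cone arrestin and the member with the largest spread, 4.14, 12.2, 2.297 and 0.826 CPM. Pde6h, a cone phosphodiesterase subunit, did not follow them, at 18.8, 18.6, 19.7 and 19.7 CPM. Gngt2, Gnat2 and Gnb3, cone transducin subunits, were highest per length, at 17.3, 16.2 and 13.6 TPM. Of the inner retinal list, Gad1, which makes the transmitter GABA, had 2.597, 17.04, 1.15 and 1.54 CPM. Calb2, calretinin of amacrine and ganglion cells, had 2.27, 18.5, 1.85 and 2.09 CPM, and Slc17a6, the ganglion cell glutamate transporter and most variable member, 0.442, 4.49, 0.1498 and 0.385 CPM. All 3 were highest in replicate 2, Gad1 by 6.56-fold and Calb2 by 8.17-fold over the next library. Slc6a9, a glycine transporter also used outside the retina, led the list per length at 180.4 ± 3.48 TPM and was almost constant, at 291, 288, 294 and 294 CPM, as was Rbpms at 60.6, 65.7, 60.3 and 64.5 CPM. Tfap2b, a transcription factor gene of amacrine cells that neural crest derivatives use too, had 46.4, 61.2, 49.1 and 44.9 CPM. Pou4f2, Lhx1 and Onecut1, transcription factor genes of inner retinal neurons, stayed at 0.221, 0.712, 0 and 0.165 CPM, 0.0553, 0.548, 0.1498 and 0 CPM and 0.0553, 0.1095, 0 and 0 CPM, under 1 CPM in every library.

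Traces of other ocular tissues differed between libraries too. Cryaa, the lens alpha-A crystallin, had 0, 6.19, 0 and 0 CPM, so its counts lay in replicate 2, and it varied most of the lens list. Crybb2, a beta crystallin, had 0, 4.22, 0 and 0 CPM in the same pattern. Cryab, a crystallin that other tissues also make, was the highest of the lens list per length, at 623 ± 24.2 TPM, and steady at 275, 303, 288 and 294 CPM. Bfsp2 and Bfsp1, lens filament genes, followed per length at 46.9 and 5.01 TPM. Surface epithelium went with replicate 3. Krt5, a basal keratin, had 123, 153, 707 and 146 CPM, and Krt4 and Krt13, conjunctival keratins, had 19.01, 48.9, 213 and 42.7 CPM and 15.4, 50.8, 156 and 47.2 CPM. Replicate 3 was thus highest for these keratins, whereas Krt12, the corneal keratin, had 9.73, 4.49, 14.2 and 47.4 CPM, highest in replicate 4. Fat genes went with replicate 4, where Fabp4, a fatty acid carrier, was highest of 13.7, 12.8, 12.8 and 27.4 CPM. Cfd, an adipocyte protease and the member with the largest spread, had 3.15, 3.72, 3.15 and 17.9 CPM, and Adipoq, which encodes adiponectin, 1.71, 0.712, 0.599 and 2.92 CPM. Lep, which encodes leptin, was under the floor in every library, at 0.0553, 0, 0 and 0 CPM.

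Spread between the 4 libraries differed among the lists. Over the 17561 genes at or above 1 CPM, the median SD of log2 CPM was 0.13, and counting alone would give 0.07. The SD exceeded 1 in 307 genes, or 1.75%. The median over members was 1.38 for rods, 1.36 for surface epithelium, 1.21 for inner retina, 1.13 for red blood cells and 0.78 for neurons. It was 0.10 for endothelium, 0.10 for pigment granule, 0.12 for pigment epithelium and 0.14 for stroma. Between the high and low values lay mast cells at 0.45, striated muscle at 0.42, Muller glia and astrocytes at 0.34, macrophages at 0.28, Schwann cells at 0.25, lens at 0.24 and mural cells at 0.18. With members at or above 5 CPM alone the inner retinal value was 0.23, that of mast cells 0.26 and that of lens 0.096. For rods the median SD in FUN025/+ and FUN025/FUN025 libraries was 1.17 and 0.92, and for surface epithelium 1.23 and 0.62, so these lists were uneven in each genotype. Without replicate 2 the rod value in WT fell to 0.74, against 0.13 over all genes, the inner retinal value to 0.36 and the neuronal value to 0.27. Without it, lens fell to 0.059. Without replicate 3 surface epithelium fell to 0.73, Muller glia and astrocytes to 0.10 and Schwann cells to 0.14. Without replicate 4 red blood cells fell to 0.67, macrophages to 0.12 and Schwann cells to 0.14.

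**Figure D3:**
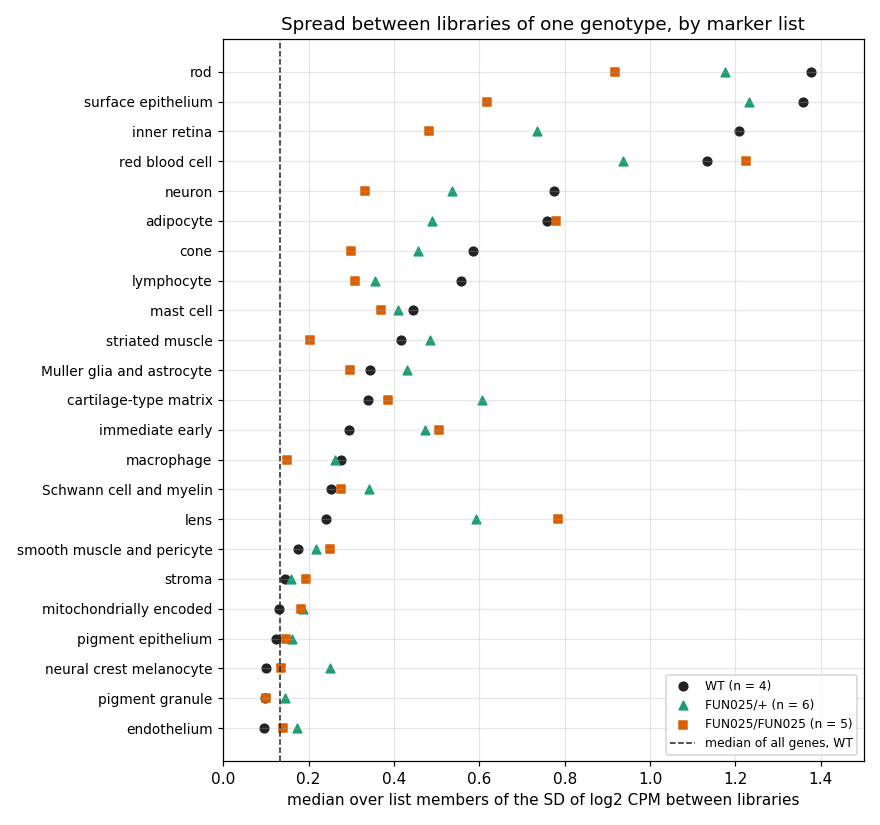
Median over list members of the SD of log2 CPM between libraries of a genotype, for WT, FUN025/+ and FUN025/FUN025. Rod, surface epithelium, inner retina and red blood cell lists lie far to the right of the dashed WT median of all genes at 0.13, and pigment and endothelial lists lie beside it.

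The 20 most variable genes at or above 5 CPM were led by sex-linked transcripts. Xist, the RNA that silences an X chromosome in female cells, had 2.43, 782, 3.49 and 663 CPM. Ddx3y, on the Y chromosome, had 128, 0.1095, 107 and 0.2202 CPM, and Eif2s3y, Kdm5d and Uty had the same pattern. Replicates 1 and 3 thus held Y-linked transcripts and replicates 2 and 4 held Xist, as a design with both sexes allows. C7, a terminal complement component, had 9.73, 1.92, 11.5 and 0.4405 CPM, high in the 2 libraries with Y-linked transcripts, and whether it depends on sex was not tested. The stromal and cartilage-type sums divided the same way, at 11535 CPM or more and 306 CPM or more in replicates 1 and 3 and at 10390.0 CPM or less and 229 CPM or less in replicates 2 and 4. Median Ddx3y was 63.5 CPM in FUN025/+ and 123 CPM in FUN025/FUN025, and median Xist 463 and 11.3 CPM. The mix of sexes was thus not the same in these groups, and the genotype comparisons below did not model sex. Gm28437, a pseudogene whose every 31-base stretch is shared with mt-Co3, had 14.6, 18.2, 14.9 and 183 CPM. Its value in replicate 4 cannot be assigned to it rather than to the mitochondrial gene. Cartpt, a neuropeptide precursor, had 17.6, 31.7, 3.74 and 55.2 CPM, lowest in replicate 3. Of the remaining genes, Grk1, Pde6a, Rp1l1, Impg1, Rgs9bp and Cplx4 are photoreceptor genes with the order of libraries of Gnat1. Pde6a, a rod phosphodiesterase subunit, had 34.6, 114, 21.1 and 10.02 CPM, and Impg1, a protein of the matrix between photoreceptors, 4.81, 14.3, 3.05 and 0.771 CPM. Gad1, Calb2 and Snap25 peaked in replicate 2, Mobp dipped in replicate 3, Tnni1 was low in replicate 1, and Cyp2a5, a cytochrome P450 gene with close paralogs, peaked in replicate 3 at 3.54, 4.82, 30.3 and 2.42 CPM. Among the 13558 genes at or above 5 CPM with an entry in GENCODE M21, 19 of these 20 were also above the 95th percentile of SD in FUN025/+ libraries, and 19 were in FUN025/FUN025 libraries. The exception in both was Gm28437, with an SD of log2 CPM of 0.19 and 0.12. Its values ran from 48.4 to 65.9 CPM in FUN025/+ and from 49.6 to 61.0 CPM in FUN025/FUN025. All lay above WT replicates 1 to 3 and below WT replicate 4, and the cause was not tested.

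Genes that set a single library apart were mostly higher in it for replicates 2 and 3 and mostly lower for replicates 1 and 4. Of genes at or above 5 CPM, 98 were at least 2-fold higher in replicate 2 than in any other WT library, and 98 in replicate 3, against 2 in replicate 1 and 10 in replicate 4. Of the 98 in replicate 2, 18 were rod genes of the list and 5 were neuronal. Of the 98 in replicate 3, 4 were listed keratins. Of the 10 in replicate 4, 4 were red blood cell genes and 2 adipocyte genes. Genes at least 2-fold lower than in any other library numbered 9, 5, 8 and 19 in replicates 1 to 4.

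**Figure D4:**
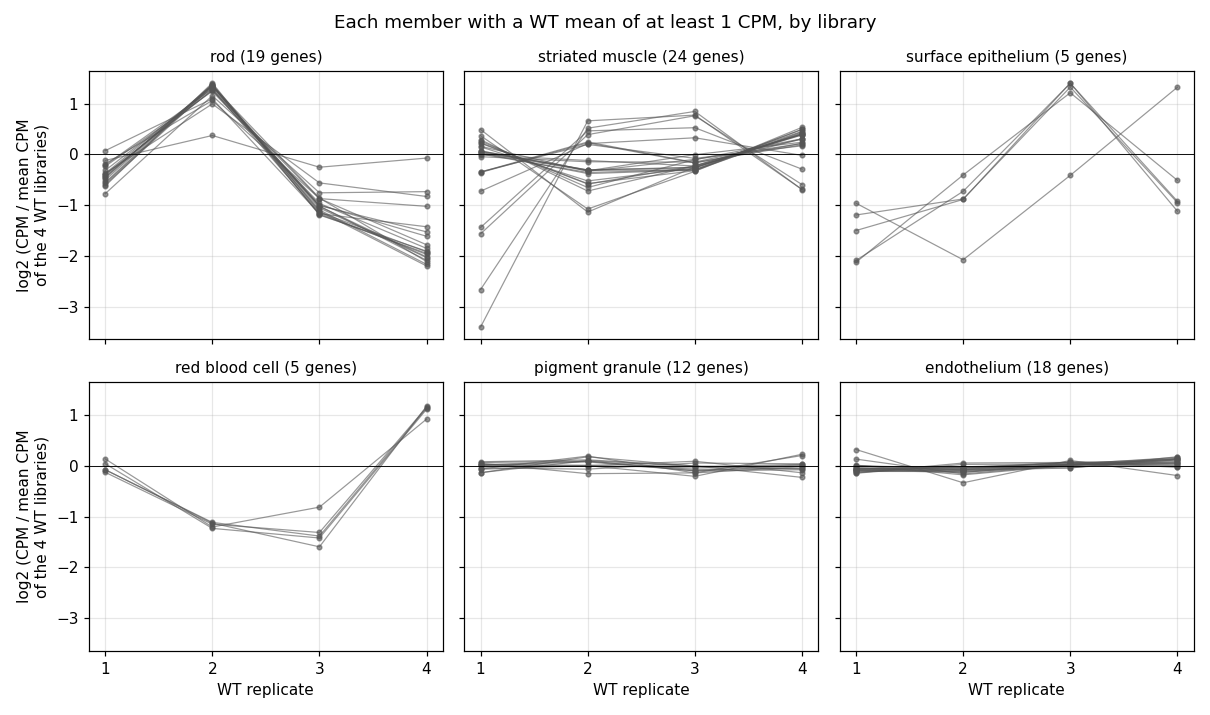
Log2 of CPM over the mean of the 4 WT libraries for each list member at or above 1 CPM, in 6 lists. Lines join the values of a gene and imply no order of replicates. All 19 rod genes peak in replicate 2, all 5 red blood cell genes in replicate 4, 4 of 5 keratins in replicate 3, the 24 muscle genes diverge in replicate 1, and pigment granule and endothelial genes stay close to 0.

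The WT libraries are the controls for both mutant groups, so it was asked which of these components differed from WT, and the 2 comparisons share the same 4 libraries. Tmem135, at chr7:89139714-89404222, which encodes a membrane protein of mitochondria and peroxisomes, had 65.6, 64.96, 66.2 and 59.2 CPM in WT. In FUN025/+ its lowest, median and highest values were 65.5, 74.4 and 84.1 CPM, which overlapped WT, and in FUN025/FUN025 they were 83.5, 88.9 and 92.1 CPM, all above WT. The log2 fold changes were 0.23 (edgeR adjusted p = 0.025) and 0.47 (edgeR adjusted p = 1.5e-04). A count over the whole gene does not read the mutated site, so it checks no label. Of 18979 genes tested, 13.7% were called in FUN025/+ and 14.0% in FUN025/FUN025 with edgeR's quasi-likelihood test at an adjusted p under 0.05. Calls of lower genes made up 6.61% and 7.02% of the tested genes, and calls of higher genes 7.09% and 7.03%.

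Endothelial genes were called in 1 direction, lower in both mutant groups. Of 18 genes, 6 were lower in FUN025/+ and 11 in FUN025/FUN025 with edgeR, beside the 6.61% and 7.02% of all genes. None was called higher by edgeR or DESeq2, and none at an unadjusted p under 0.05. The median log2 fold change of the list was -0.16 and -0.34, against -0.002 and -0.007 over all genes tested. Plvap had 175, 224 and 262 CPM as lowest, median and highest values in FUN025/+ and 154, 189 and 195 CPM in FUN025/FUN025, against 261 to 313 CPM in WT. The FUN025/FUN025 values lay entirely below WT, with a log2 fold change of -0.63 (edgeR adjusted p = 0.0012), and in FUN025/+ it was -0.33 (edgeR adjusted p = 0.048). Cdh5, the cadherin of endothelial junctions, had log2 fold changes of -0.27 and -0.50 (edgeR adjusted p = 0.023 and 3.3e-04). Robo4, an endothelial guidance receptor, had -0.40 and -0.53 (edgeR adjusted p = 0.0028 and 3.9e-04). Kdr had -0.04 and -0.34 and Tek, the angiopoietin receptor, 0.05 and -0.07, and neither passed the test (edgeR adjusted p = 0.87 and 0.06 for Kdr, 0.73 and 0.62 for Tek). Replicate 4 was the WT library highest in 12 of the 18 genes. Without it, 1 endothelial gene was lower in FUN025/+ and 6 in FUN025/FUN025, while calls over all genes fell to 1433 and 1519 from 2600 and 2666. Without WT replicate 3, 2 and 8 were lower.

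All muscle genes had fitted values below WT, and some passed the test. Of 24 genes, 6 were called lower in FUN025/+ and 4 in FUN025/FUN025 by edgeR, beside the 6.61% and 7.02% of all genes. At an unadjusted p under 0.05, 14 and 13 were lower, beside 14.9% and 15% of all genes, and DESeq2 called 10 lower in each, beside 7.55% and 7.99%. None was higher by edgeR, by DESeq2 or at an unadjusted p under 0.05, and all 24 had a log2 fold change below 0 in both. The list summed to 4031, 5407 and 9816 CPM as lowest, median and highest in FUN025/+ and 6017, 6890.2 and 7185 CPM in FUN025/FUN025. All 5 FUN025/FUN025 sums lay below the lowest WT sum of 7528 CPM, and the FUN025/+ sums overlapped WT. The median log2 fold changes were -0.67 and -0.69. Some smaller lists shifted too, by -1.03 and -0.42 for 6 adipocyte genes and -1.16 and -0.41 for 5 red blood cell genes. Lens (12 genes) had 1.29 and 2.48, and surface epithelium (5 genes) 1.04 and 1.05. In these lists edgeR called only 1 adipocyte and 1 lens gene, both lower in FUN025/+, beside the 6.61% of all genes. Acta1 had -0.90 and -0.83 (edgeR adjusted p = 0.02 and 0.035), and Mb, the oxygen store myoglobin, -0.69 and -0.90 (edgeR adjusted p = 0.015 and 0.0041). Atp2a1 had -0.76 and -0.73 and was not called (edgeR adjusted p = 0.10 and 0.13). Without WT replicate 4, the library highest in 15 of these genes, 1 muscle gene was lower in each mutant group. Without WT replicate 2, 3 were lower in each, and without WT replicate 3, 3 and 4. Without WT replicate 1, the counts were 8 and 7.

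**Figure D5:**
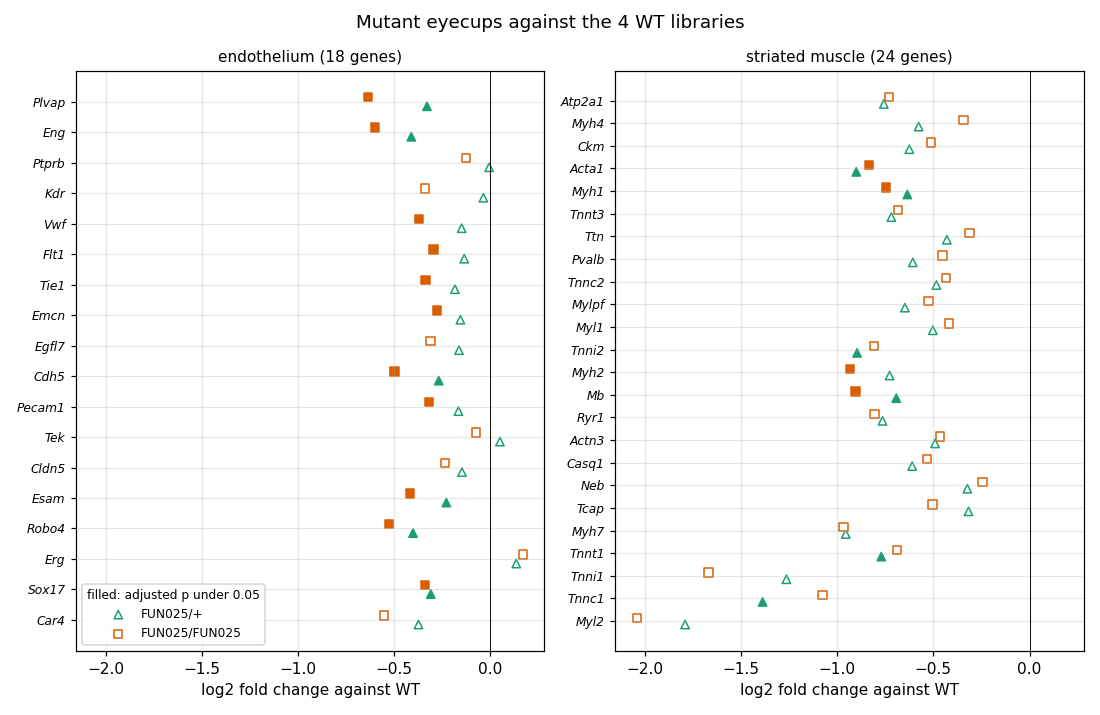
Log2 fold changes of endothelial and striated muscle genes in FUN025/+ and FUN025/FUN025 eyecups against WT, filled where the edgeR adjusted p was under 0.05. In FUN025/FUN025, 11 of 18 endothelial genes are filled, all to the left of 0, and 4 of 24 muscle genes are.

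Of the 15 pigment epithelium and 12 pigment granule genes, 1 and 0 passed the test in FUN025/+ and 1 and 1 in FUN025/FUN025, all higher, beside the 7.09% and 7.03% of all genes called higher. Trpm3 was the single gene of the pigment epithelium list that passed it, higher in both mutant groups. Its log2 fold changes were 0.25 in FUN025/+ and 0.29 in FUN025/FUN025 (edgeR adjusted p = 0.018 and 0.0081). The FUN025/+ call was lost with the replicate block and without WT replicate 3. The replicate numbers pair nothing, so a loss with that block alone decides nothing about a call. Of the pigment granule list, Gpr143, a melanosome receptor gene, passed in FUN025/FUN025, with 0.22 (edgeR adjusted p = 0.044), and had 0.10 in FUN025/+ (edgeR adjusted p = 0.35). That call was lost without WT replicate 1, 2 or 4, without FUN025/+ replicate 5 and without FUN025/FUN025 replicate 2, 3 or 5, and the difference between the mutant groups was not tested. Rpe65 had 0.18 and -0.15 and Pmel -0.03 and 0.01, and neither passed. In the stromal list 0 of 16 genes were called by edgeR in either comparison. At an unadjusted p under 0.05, 0 passed in FUN025/+ and 6 were lower in FUN025/FUN025, where 15% of all genes were, and DESeq2 called 0 and 3, beside 7.55% and 7.99% of all genes lower. Of the 20 macrophage genes, Cd68, a lysosomal gene, was higher in FUN025/FUN025, at 0.32 (edgeR adjusted p = 0.017), a call lost with the replicate block, and Csf1r had 0.06 and 0.01.

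Rod genes had large log2 fold changes that did not pass the test. Gnat1 had 15.9, 28.1 and 126 CPM as lowest, median and highest values in FUN025/+ and 19.3, 38.02 and 74.1 CPM in FUN025/FUN025, and both groups overlapped the WT range of 40.4 to 424 CPM. Its log2 fold changes were -1.83 and -1.92 (edgeR adjusted p = 0.12 and 0.13). Of 19 rod genes tested, all 19 had a log2 fold change below 0 in both comparisons, 0 were called by edgeR in FUN025/+ and 1 in FUN025/FUN025. The share of all genes lower by edgeR was 6.61% and 7.02%. At an unadjusted p under 0.05, 16 and 17 were lower, beside 14.9% and 15% of all genes, and DESeq2 called 6 lower in each comparison, beside 7.55% and 7.99%. Without WT replicate 2, the median log2 fold change of the list was -0.77 in both comparisons, against -1.74 and -1.78 with it. The called gene was Rom1, the flattest rod gene among WT libraries, at -0.38 (edgeR adjusted p = 0.018), a call lost with fits to 2 genotypes alone. Of 9 cone genes tested, edgeR called 0 in FUN025/+. In FUN025/FUN025 it called 1 lower and 1 higher, beside 7.02% and 7.03% of all genes. Pde6c, a cone phosphodiesterase subunit, was lower there, at -1.13 (edgeR adjusted p = 1.9e-04). Gnb3 was higher there, at 1.38 (edgeR adjusted p = 0.048), a call lost with the replicate block, with fits to 2 genotypes alone, without the low-count filter and without WT replicate 1, 3 or 4. Of 13 mitochondrial genes tested, edgeR called 4 higher and 0 lower in each comparison, beside 7.09% and 7.03% of all genes higher. DESeq2 called 5 higher in each, beside 1550 and 1522 of all 18979 genes, and 1 and 0 lower, beside 7.55% and 7.99%. The genes called by edgeR were mt-Co2, mt-Co3, mt-Nd3 and mt-Atp8, with log2 fold changes of 1.43 to 2.16 for the first pair in FUN025/+. By contrast mt-Co1 had 0.05 and 0.05. Of the called genes, mt-Co2, mt-Co3 and mt-Nd3 share nearly all of their sequence with other annotated genes, and the part of that in the result was not tested.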

How the data were processed

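Polyadenylated RNA from posterior eyecups of 4 WT, 6 FUN025/+ and 5 FUN025/FUN025 mice was measured by RNA-seq, and libraries were grouped by their labels. The deposited values are raw read counts without normalization, 1 per Ensembl gene (55421 genes) and library. The submitters' processing notes name FastQC 0.11.8, Trimmomatic 0.39, HISAT2 2.1.0, SAMtools, featureCounts 2.0.0 and GRCm38, and the strand setting and annotation release are not given in the sources used here. Reads that fit several genes may have been dropped, which would lower genes with copies elsewhere.

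GENCODE M21 (GRCm38) gave names, types, positions and exon lengths, and 181 genes had no entry there. Exon length is the union over transcripts, so levels per length can be understated for genes with long rare exons. CPM was the count over the library total. Spread was the SD of log2 CPM with a prior count of 2. For the genotype comparisons the 15% of genes with the lowest variance and genes of low count (filterByExpr) were removed. Then edgeR 4.0.16 (quasi-likelihood test, TMM, Benjamini-Hochberg) was fitted to all 15 libraries, with genotype as the only term. DESeq2 1.42.0 was an alternative. On simulated counts for FUN025/FUN025 against WT over 18979 genes, 82.5% of 200 genes changed 2-fold were called and 7.30% of calls were on unchanged genes. Nothing in the labels ties the libraries to a processing batch, and p-values measure the spread between these mice.

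The 24 marker lists and the WT libraries as a subject were chosen with earlier results of these data known. Named genes were the 25 highest in CPM, the 10 highest per length, the 20 with the largest SD at or above 5 CPM, Tmem135 and, per list, fixed markers, the 3 highest per length and the member with the largest SD. Other members named were chosen after their values were seen, and a few that this rule names are not reported here. Shared sequence is the share of 31-base stretches of a gene's exons that occur in another annotated gene. Promoters came from RefSeq. Alternatives were other scalings, filters and priors, DESeq2, a replicate block and leaving out each library.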

Additional observations from a re-analysis of the deposited data

Results flagged for a closer look

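Of 71 WT values examined, 13 had a library far from the other 3, with a gap beyond Dixon's critical share of the group's range for 4 values. The values were the 24 list sums, the 25 genes highest in CPM, the 10 highest per length, the 20 with the largest spread, and Tmem135. List members named for other reasons were not examined. Chance flags about 1 in 20 such groups, but that rate does not apply here. The genes include the 20 chosen for the largest spread among the same libraries, and the lists share members with the genes.

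Replicate 2 was apart in 8 of them. It was highest for the pigment granule list at 11074 CPM, the neuron list at 309.8 CPM, the cone list at 124 CPM and the inner retina list at 576 CPM, where the other libraries reached 9725, 111, 74.8 and 493 CPM. It was also highest for Gad1 at 17.0 CPM, Calb2 at 18.5 CPM and Snap25 at 65.8 CPM, and lowest for Sparc at 1771 CPM, against 2035 CPM or more in the others.

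Replicate 3 was apart for the surface epithelium list at 1184 CPM and for Cyp2a5 at 30.3 CPM, against at most 299 and 4.82 CPM. Replicate 4 was apart for the adipocyte list at 54.9 CPM, for Gm28437 at 183 CPM and, downward, for Tmem135 at 59.2 CPM, where the others lay at 65.0 to 66.2 CPM. The last gap was 0.8293 of the range, barely past that limit.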

How the results depend on the processing

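Calls over all genes numbered 2600 in FUN025/+ and 2666 in FUN025/FUN025, and 1433 to 2719 and 1519 to 2697 when 1 library was left out, the lowest without WT replicate 4. DESeq2 called 2983 and 3039 genes, fits to 2 genotypes alone 1971 and 2285, and the replicate block 2010 and 2137. Same-numbered libraries correlated at -0.385 to 0.0255 in their deviations, so the numbers pair nothing. With the block, 1 and 11 endothelial and 10 and 7 muscle genes were lower. DESeq2 put muscle at 10 in each comparison, and without the low-count filter it was 3 and 2. Without FUN025/+ replicate 5, muscle was 13 and 7, without FUN025/+ replicate 3 it was 3 and 5, and without FUN025/FUN025 replicate 2 or 5 it was 2 in FUN025/FUN025. Fits of FUN025/FUN025 and WT alone gave 9.

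Per length the lists summed to 30542 (pigment epithelium), 1644 (endothelium), 6719 (stroma), 13338 (striated muscle), 1119.5 (Schwann cell and myelin) and 1289.5 (macrophage) TPM. Spread without 1 library ranged from 0.10 to 0.15 (pigment epithelium), 0.075 to 0.11 (pigment granule), 0.078 to 0.11 (endothelium), 0.12 to 0.16 (stroma), 0.32 to 0.46 (striated muscle), 0.14 to 0.27 (Schwann cell and myelin), 0.12 to 0.30 (macrophage) and 0.74 to 1.67 (rod). At 5 CPM or more the spread of Schwann cell and myelin genes was 0.15, and of inner retinal genes 0.23. Of 156 values for these lists and the calls over all genes, 136 stayed within 1 SD (between libraries for a level, between the values without 1 library for a spread) or, for calls, within 1.5 times, and 20 moved. By the same rules 256 values stayed and 55 moved among the other lists and the endothelial and muscle call counts. Genes under about 0.17 CPM in WT lie within 3 counts and cannot be ranked, and the cause of each shift was not tested.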

Other observations

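Of the genes at least 2-fold above the other WT libraries, 71 in replicate 2, 94 in replicate 3 and 3 in replicate 4 were in no list, and those named here were chosen after their values were seen. In replicate 2, Scg2, a granin, had 4.81, 22.95, 2.696 and 4.85 CPM, Chgb, another granin, 3.32, 15.3, 2.496 and 2.59 CPM and Sncb, beta-synuclein, 4.42, 19.1, 1.698 and 3.25 CPM. In replicate 3, Cldn4, a tight junction gene, had 4.2001, 4.98, 31.6 and 4.57 CPM and Krt17, a stress keratin, 2.16, 3.23, 18.3 and 2.37 CPM. Alox12e, an epidermal lipoxygenase, had 10.6, 16.6, 85.4 and 13.1 CPM. In replicate 4, Acp5, the acid phosphatase of osteoclasts and some macrophages, had 6.19, 6.52, 7.89 and 18.3 CPM. Noncoding RNA was led by Malat1 at 2002 CPM. Among antisense genes A930016O22Rik had the most counts, at 393 CPM, but 12.8% of the stretches of the muscle gene Ckm also lie in it, and with the counting strand not given its reads cannot be told from those of Ckm.

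Immediate early genes, a class of rapidly induced regulators, summed to 312, 231, 300.2 and 288 CPM. Egr1, a transcription factor gene, had 57.9, 19.6, 46.1 and 24.6 CPM and varied most of them, highest in replicate 1 and lowest in replicate 2. Jun had 68.8, 79.8, 88.1 and 92.4 CPM, lowest in replicate 1.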
